A study of Mus musculus with 6 samples.

Results

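TRBV12-1 and TRBV12-2 are the mouse V-beta-5 genes, a pair of variable (V) segments of the T cell receptor β chain. The family is known for its use in OT-I, a receptor that recognises a peptide of ovalbumin (OVA) and is carried by a widely used line of transgenic mice. Its members were taken by name: every entry of the 6 repertoire libraries assigned to TRBV12-1 or TRBV12-2 whose complementarity-determining region 3 (CDR3) carried no stop or frame mark. This gave 2 of the 23 TRBV genes in the files and 65016 of 496196 productive reads. They fell into 21086 of the 187625 clonotypes, 10342 with TRBV12-1 and 10744 with TRBV12-2, where a clonotype stands for entries that agree in V gene, in J gene and in the amino acids of CDR3.

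All libraries came from C57BL/6 mice with 2 tumors, grown from 100000 MO4 cells placed subcutaneously in the right and in the left hindlimb (day 0). MO4 is a line made from the B16F10 melanoma that expresses OVA. The agent was IFN-α-iPSC-pMC, myeloid cells made from induced pluripotent stem cells that produce interferon-α. A dose of 1000000 went beside the right tumor 5 times, first on days 5 to 7 and again on days 12 and 13, and the tissues gave their RNA at day 14. The treated tumor is the injected right tumor, the distant tumor is the left tumor of mice treated in the same way, which received no cells itself, and the spleen was taken as well. Each group has 2 libraries, numbered 1 and 2, from the 2 mice the series describes. Every library is therefore from a mouse that was given the cells, and the T cells are the host's own, with no transgenic receptor named in the labels.

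A β chain gene is assembled in the thymus by joining a V, a D and a J segment, and the V segment encodes CDR1, CDR2 and the first residues of CDR3. The bases trimmed and added at the joints make the middle of CDR3, the part that lies closest to the peptide in a receptor bound to its antigen, while the J segment supplies its end. A T cell that divides passes on the same CDR3, so one clonotype with many reads in a library points to many copies of one β chain RNA. In RNA from whole tissue, more cells of a clone and more RNA per cell cannot be told apart.

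Both genes lie on the plus strand of chromosome 6 in GRCm38 (GENCODE M21), TRBV12-1 at chr6:41113550-41114067 and TRBV12-2 at chr6:41118851-41119364, with TRBV13-1 between them. TRBV12-3, annotated as a pseudogene, lies further along. Each gene has 2 exons, and exon 2 holds 293 bases in both, of which 32 differ (89.1% identity). The last 120 bases of exon 2, which run into the CDR3, are shown because they are the part of the V gene nearest to the constant region primers. Capitals mark the 9 bases that differ between them, and the last 23 bases are identical.
TRBV12-1, chr6:41113948-41114067: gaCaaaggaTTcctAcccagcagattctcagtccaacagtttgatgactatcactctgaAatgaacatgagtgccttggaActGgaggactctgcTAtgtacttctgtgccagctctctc
TRBV12-2, chr6:41119245-41119364: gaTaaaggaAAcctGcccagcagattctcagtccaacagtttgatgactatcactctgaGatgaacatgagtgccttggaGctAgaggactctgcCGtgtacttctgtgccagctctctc

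The CDR3s below led one of the genes in at least 1 tumor, and most of the results on clones concern them. They are printed as deposited, from the first to the last residue of the CDR3 column, each with its gene, its J partner and the library it led.
TRBV12-1 with TRBJ1-2, distant tumor 1: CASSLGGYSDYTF
TRBV12-1 with TRBJ2-7, treated tumor 1: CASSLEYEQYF
TRBV12-1 with TRBJ1-3, treated tumor 2: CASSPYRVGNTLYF
TRBV12-2 with TRBJ2-5, treated tumor 2: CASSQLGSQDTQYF
TRBV12-2 with TRBJ2-7, distant tumor 1: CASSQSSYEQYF
The leaders with a CDR3 of 15 or more residues are given by gene, J partner and length instead of letters. They were TRBV12-1 with TRBJ2-7 (15 residues) in distant tumor 2, TRBV12-2 with TRBJ2-2 (16 residues) in treated tumor 1 and TRBV12-2 with TRBJ1-4 (16 residues) in distant tumor 2.

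The libraries held between 42320 and 135599 productive reads, and the lowest total was that of distant tumor 2. At these totals 1 read is 0.000737% to 0.00236%. Of a library's reads, 4.45% to 6.62% carried a stop or frame mark and were left out. PCR without molecular identifiers can turn a molecule into many reads, so the 95% Wilson confidence intervals given here, and the floor of 3 reads used where a count is 0, cover counting error only.

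The read share of TRBV12-1 spread far more widely over the tumors than that of TRBV12-2, and 1 library set the spread. TRBV12-1 held 3.34% and 1.44% of productive reads in treated tumors 1 and 2, 24.4% and 3.34% in distant tumors 1 and 2, and 5.27% and 5.37% in spleens 1 and 2. Distant tumor 1 stands alone above both spleens, and the other 3 tumors lie below them. Among the 23 TRBV genes TRBV12-1 had the highest share in distant tumor 1, and it was at rank 16 and 18 in the treated tumors, 11 in distant tumor 2, and 8 and 10 in the spleens. The group averages were 2.39 ± 1.34% in treated tumors, 13.9 ± 14.9% in distant tumors and 5.32 ± 0.0680% in spleens (SD, n = 2 each).

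TRBV12-2 held 8.45% and 4.08% of productive reads in treated tumors 1 and 2, 4.12% and 4.64% in distant tumors 1 and 2, and 6.18% and 5.09% in spleens 1 and 2. Treated tumor 1 was above both spleens and the remaining tumors below them. Its rank among TRBV genes was 3 in treated tumor 1 and between 5 and 12 elsewhere. The group averages were 6.26 ± 3.09% in treated tumors, 4.38 ± 0.372% in distant tumors and 5.64 ± 0.770% in spleens (SD, n = 2 each). The range of the treated tumors covers those of the distant tumors and of the spleens, and both distant tumors lie below both spleens. In distant tumor 1 a single TRBV12-1 clonotype took 18.5% of the reads over which these shares are taken. How far it lowers the TRBV12-2 share there was not tested. With each clonotype counted once, the distant tumors, at 5.62% and 5.75%, lay between the spleens, at 5.99% and 5.21%. Both genes together made up 11.8% and 5.52% of reads in the treated tumors, 28.6% and 7.98% in the distant tumors, and 11.5% and 10.5% in the spleens.

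**Figure D1:**
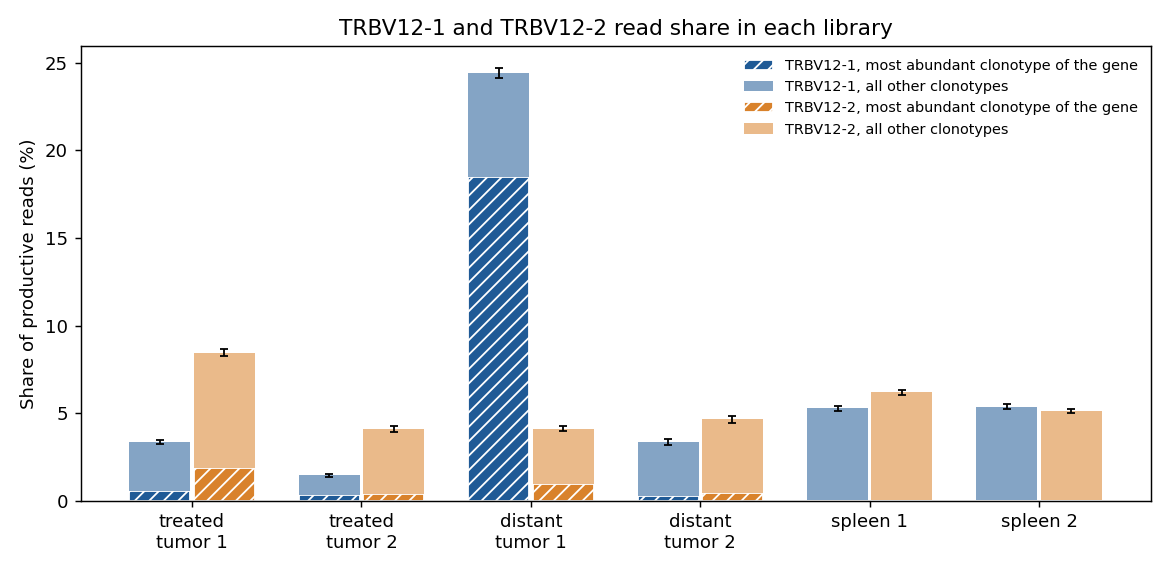
Share of productive reads (%) of TRBV12-1 (blue) and TRBV12-2 (orange) in each of the 6 libraries, with 95% Wilson intervals, split into the most abundant clonotype of the gene in that library (hatched) and all other clonotypes. In distant tumor 1 the TRBV12-1 bar reaches 24.4% and most of it is 1 clonotype, while in the spleens the hatched part is too small to see.

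Neither gene passed the test of usage between groups. edgeR's quasi-likelihood test over all 23 TRBV genes called 0 of them (0.0%) between treated and distant tumors, 0 of 23 (0.0%) between treated tumors and spleens and 0 of 23 (0.0%) between distant tumors and spleens, at an adjusted p under 0.05. At an unadjusted p under 0.05 the same fit held 3, 3 and 4 genes in these comparisons, and DESeq2 called 2, 3 and 0. For TRBV12-1 the log2 fold change was -2.54 (SE 0.936, adjusted p = 0.260 by edgeR) in treated against distant tumors, -1.15 (adjusted p = 0.561) in treated tumors against spleens and 1.38 (adjusted p = 0.400) in distant tumors against spleens. For TRBV12-2 the same comparisons gave log2 fold changes of 0.52 (SE 0.422, adjusted p = 0.470 by edgeR), 0.15 (adjusted p = 0.798) and -0.36 (adjusted p = 0.569).

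The TRBV12-1 contrast between the tumors rests on distant tumor 1. Without that library the log2 fold change of TRBV12-1 was -0.48 in treated against distant tumors, and that of distant tumors against spleens turned to -0.67. Without distant tumor 2 the values were -3.35 (adjusted p = 5.68e-06 by edgeR) and 2.20 (adjusted p = 0.00376), where distant tumor 1 is then the lone distant library and is assumed to vary like the others. With DESeq2 the TRBV12-1 contrast of treated against distant tumors was -2.95 (adjusted p = 0.00901). When each clonotype was counted once, whatever its reads, it was -1.37 (adjusted p = 0.0249 by edgeR). By that measure TRBV12-1 made up 3.99% and 2.22% of clonotypes in the treated tumors, 11.6% and 4.50% in the distant tumors and 5.37% and 5.46% in the spleens. Distant tumor 1 is again the highest, and the treated tumors are the lowest pair. Counting once takes out the read number of a clone but not its 1-residue variants. In distant tumor 1, 767 of 1297 TRBV12-1 clonotypes (59.1%) used TRBJ1-2, the J gene of its leading clonotype. The spleens had 8.54% and 7.31%. With such variants merged distant tumor 1 still had 50.9%. How far the TRBJ1-2 clonotypes carry the contrast was not tested.

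In the same libraries the genes were set against each other. The log2 ratio of TRBV12-1 to TRBV12-2 reads was -1.34 and -1.50 in the treated tumors, 2.57 and -0.48 in the distant tumors, and -0.23 and 0.08 in the spleens. TRBV12-2 thus had more reads than TRBV12-1 in both treated tumors, in distant tumor 2 and in spleen 1, and fewer in distant tumor 1 and spleen 2. Over the 6 libraries the mean log2 ratio was -0.15 (p = 0.8125, exact sign-flip permutation test, two-sided). The mean log2 ratio of clonotypes was -0.31 (p = 0.3125, exact sign-flip permutation test).

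The 3 TRBV13 genes that lie between and beside the TRBV12 genes, known as the V-beta-8 genes, gave a local background. Of these 0 of 3 were called in any of the 3 comparisons by edgeR. TRBV13-1 held 5.47% and 7.55% of reads in the treated tumors, 3.45% and 6.74% in the distant tumors, and 5.88% and 5.58% in the spleens. TRBV13-2, the most used of the 3, held 14.0% and 9.49%, 8.09% and 10.6%, and 14.3% and 12.2% in the same order of tissues. Its log2 fold change was 0.33 in treated against distant tumors, and that of TRBV13-3 was 0.82.

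Some V genes followed the members across libraries more closely than others. By the root mean square difference of log2 read shares, each centred on its mean over the 6 libraries, TRBV12-1 was closest to TRBV29 (0.828), TRBV17 (1.05) and TRBV23 (1.20) of 21 other genes. TRBV29 had its highest share, 9.46%, in distant tumor 1 too, against 3.73% to 5.46% elsewhere. TRBV12-2 was closest to TRBV13-2 (0.188), TRBV19 (0.279) and TRBV15 (0.328). TRBV12-2 itself came 7th in likeness to TRBV12-1 (1.34), while TRBV12-1 came 20th of 21 in likeness to TRBV12-2, at the same distance. These are descriptions over 6 libraries that share their depth among all genes.

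A few clonotypes held a large part of either gene's reads in tumors, and none did in spleens. The most abundant TRBV12-1 clonotype took 16.6% and 24.0% of the gene's reads in the treated tumors, 75.7% and 8.64% in the distant tumors, and 0.274% and 0.275% in the spleens. For TRBV12-2 the values were 22.2% and 8.79% in the treated tumors, 23.4% and 8.85% in the distant tumors, and 1.00% and 0.232% in the spleens. Every tumor was above both spleens for both genes. With 4 tumors against 2 spleens no two-sided exact permutation test can give a p below 0.0667, and the differences of 31.0 percentage points for TRBV12-1 (p = 0.267) and 15.2 for TRBV12-2 (p = 0.133) did not pass.

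The number of different clonotypes was compared at equal numbers of reads, since it grows with reads. In draws of 809 TRBV12-1 reads, the total of the smallest library, there were on average 214 and 167 clonotypes in the treated tumors, 111 and 309 in the distant tumors, and 746 and 762 in the spleens. In 809 TRBV12-2 reads there were 242 and 179, 221 and 311, and 731 and 761 in the same tissues. Tumors and spleens did not overlap for either gene, and the exact permutation p of 0.0667 is the smallest the design allows. The genes were alike in spleens by this measure, while in distant tumor 1 TRBV12-1 had 111 clonotypes to 221 of TRBV12-2.

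**Figure D2:**
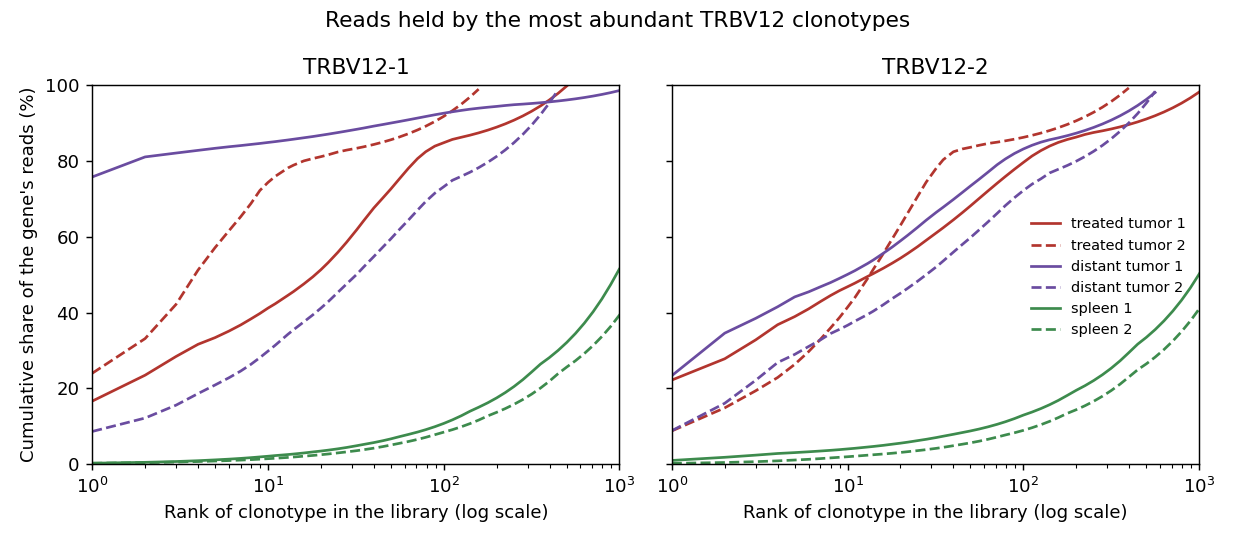
Cumulative share of a gene's reads (%) held by its most abundant clonotypes, against their rank (log scale), for TRBV12-1 (left panel) and TRBV12-2 (right panel), with solid lines for libraries numbered 1 and dashed lines for those numbered 2. The 10 most abundant clonotypes held between 29.8% and 84.8% of TRBV12-1 reads in tumors against at most 2.11% in spleens, and 36.6% to 50.1% of TRBV12-2 reads in tumors against at most 4.04% in spleens.

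The TRBV12-1 clonotype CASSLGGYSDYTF with TRBJ1-2 was the most abundant clonotype of any V gene in distant tumor 1. It had 190 reads in treated tumor 1 (0.228%, interval 0.198% to 0.263%), 15201 in distant tumor 1 (18.5%, interval 18.2% to 18.8%), 1 in spleen 2 and 0 in the other 3 libraries. Its share in distant tumor 1 was 81.0 times that in treated tumor 1. With the leading TRBV12-1 clonotype of each library taken out, the gene held 2.80% and 1.10% of the remaining reads in the treated tumors, 7.28% and 3.06% in the distant tumors, and 5.26% and 5.36% in the spleens. Distant tumor 1 was thus highest also without its leader. Of its 20071 TRBV12-1 reads, however, 17121 used TRBJ1-2, the 15201 of the leader among them. The 7.28% thus still holds reads of other TRBJ1-2 clonotypes, and the share without these was not tested. Among TRBV12-2 reads the CDR3 and J gene of this leader had 6 reads in distant tumor 1.

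Many of the remaining TRBV12-1 clonotypes of distant tumor 1 differ from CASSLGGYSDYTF by 1 residue. There were 91 such neighbours of the same V and J gene and length, with 1023 reads in all, and the largest had 109. Folding every 1-residue variant into a clonotype with at least 10 times its reads took the number of TRBV12-1 clonotypes in distant tumor 1 to 821, against 1297 before. In the spleens the same step left 3461 of 3477 and 5018 of 5032 clonotypes. Variants of this kind can be errors of PCR or sequencing or related receptors, and these cannot be told apart in these files.

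The second TRBV12-1 clonotype of distant tumor 1, which uses TRBJ1-6 and has 15 residues, had 44 reads in treated tumor 1, 1061 in distant tumor 1 and 1 in spleen 2. The third, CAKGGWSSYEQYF with TRBJ2-7, had 28 in treated tumor 1 and 205 in distant tumor 1. All 3 leaders of TRBV12-1 in this tumor were thus also found in treated tumor 1, each at a lower share.

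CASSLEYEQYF with TRBJ2-7 led TRBV12-1 in treated tumor 1 and was the only TRBV12-1 clonotype found in all 6 libraries. It had 462 and 73 reads in the treated tumors (0.555%, interval 0.507% to 0.608%, and 0.130%), 142 and 3 in the distant tumors (0.173% and 0.00709%), and 1 in each spleen. It was more abundant in the treated than in the distant tumor of both numbers, 3.21 times in number 1 and 18.4 times in number 2, the second a ratio over 3 reads. At 11 residues it is short, and CDR3s of this length made up 11.4% and 9.6% of TRBV12-1 clonotypes in the treated tumors, 2.2% and 3.6% in the distant tumors and 3.3% and 3.9% in the spleens. Among those of treated tumor 1 were 25 that differ from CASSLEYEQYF by 1 residue. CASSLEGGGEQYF with TRBJ2-7 was the TRBV12-2 clonotype found in all 6 libraries, with 150 and 19 reads in the treated tumors, 2 and 10 in the distant tumors, and 5 and 1 in the spleens.

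In treated tumor 1 the leader of TRBV12-2 was its clonotype with TRBJ2-2 and 16 residues. It had 1560 reads there (1.88%, interval 1.79% to 1.97%), 379 in distant tumor 1 (0.461%) and 1 in spleen 1. It was the third most abundant clonotype of treated tumor 1 and the 15th of distant tumor 1, with a share 4.07 times as high in the treated tumor. The next TRBV12-2 clonotypes of treated tumor 1, one with TRBJ1-4 (394 reads) and one with TRBJ2-5 (350 reads), both of 15 residues, were found in no other library. With the floor of 3 reads for distant tumor 1, the share of the first was at least 130-fold higher in treated tumor 1 and that of the second at least 115-fold.

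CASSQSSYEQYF with TRBJ2-7 led TRBV12-2 in distant tumor 1, with 44 reads in treated tumor 1, 790 in distant tumor 1 and 9 in spleen 1. Its share in distant tumor 1 was 18.2 times that in treated tumor 1. A TRBV12-2 clonotype with TRBJ2-5 and 15 residues had 10 reads in treated tumor 1, 132 in distant tumor 1 and 14 in spleen 1.

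In the tumors numbered 2 the leader of each gene had fewer reads than in the same tumor of number 1, and several leaders came from 1 tumor. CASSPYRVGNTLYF with TRBJ1-3 had 194 reads in treated tumor 2 (0.346%) and none elsewhere, and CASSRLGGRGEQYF with TRBJ2-7, a TRBV12-2 clonotype, had 139 there and none elsewhere. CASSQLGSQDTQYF with TRBJ2-5 and TRBV12-2 had 201 reads in treated tumor 2, none in a distant tumor and 1 in spleen 2. In distant tumor 2 the leaders were the 15-residue clonotype of TRBV12-1 with TRBJ2-7 (122 reads, with 1 in treated tumor 1 and 20 in spleen 2) and the 16-residue clonotype of TRBV12-2 with TRBJ1-4 (174 reads, with 4 in spleen 2). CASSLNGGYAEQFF with TRBJ2-1 and TRBV12-2 was abundant in both, with 103 reads in treated tumor 2 (0.184%), 142 in distant tumor 2 (0.336%) and 15 in spleen 2. It was among the 3 most abundant TRBV12-2 clonotypes in each of the 3 tissues with number 2.

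The reads of each clonotype were compared between the tumors of a number. The test counts PCR reads as independent molecules, so it covers counting error only, and the high share of calls in the family and in the whole repertoire is to be read with that limit. Fisher's exact test of reads in treated tumor 1 and distant tumor 1, for clonotypes with at least 10 reads in both together, called 161 of 294 TRBV12 clonotypes higher in treated tumor 1 and 125 higher in distant tumor 1, with 8 not called, beside 95.7% of the 2257 clonotypes of all V genes called. For TRBV12-1 the split was 60 higher in treated and 76 higher in distant tumor 1, and for TRBV12-2 it was 101 and 49, where over all V genes it was 1223 and 938. For number 2 the test called 45 of 107 higher in treated tumor 2 and 61 higher in distant tumor 2, with a background of 94.0%. The split there was 11 and 27 for TRBV12-1, and 34 and 34 for TRBV12-2, where over all V genes it was 537 and 509. The direction of the family in number 2 turned with the read minimum, with 52 higher in treated and 146 higher in distant tumor 2 at 5 reads, and 17 and 7 at 50 reads. These tests compare 2 libraries and not the conditions, and 1-residue variants of a large clonotype are counted among them.

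Of the tested TRBV12 clonotypes, 41 of 294 in number 1 and 9 of 107 in number 2 had reads in both tumors, where over all V genes these were 360 of 2257 and 240 of 1113. Those found in both tumors of number 1 included leaders on either side. The 16-residue TRBV12-2 clonotype with TRBJ2-2, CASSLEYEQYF, and a TRBV12-2 clonotype with TRBJ1-3 and 15 residues (281 reads in treated tumor 1 and 14 in distant tumor 1) were higher in the treated tumor. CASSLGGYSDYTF, its 15-residue companion with TRBJ1-6 and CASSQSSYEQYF were higher in the distant tumor.

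**Figure D3:**
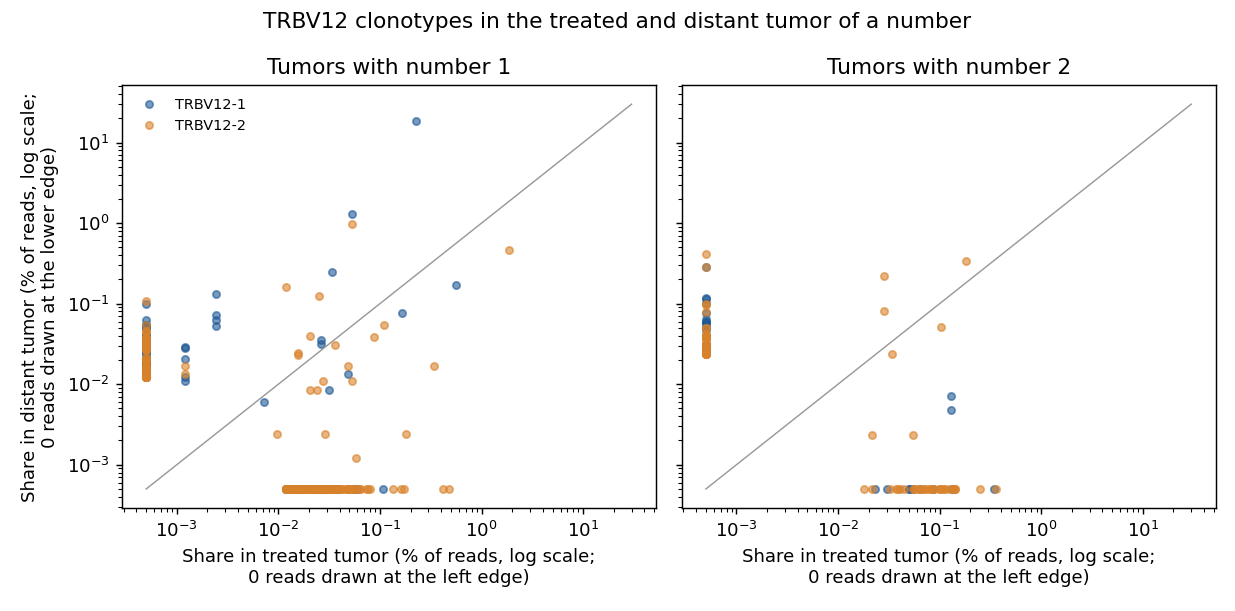
Share of productive reads (%, log scales) of each tested TRBV12 clonotype in the treated tumor (horizontal axis) and in the distant tumor (vertical axis) with the same number, for TRBV12-1 (blue) and TRBV12-2 (orange). The diagonal marks equal shares, points with 0 reads in one tumor are drawn at that edge, and the single point at the top of the left panel is the TRBV12-1 clonotype with 0.228% in treated tumor 1 and 18.5% in distant tumor 1.

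In number 1 few clonotypes were shared between the tumors, but they held a large part of the reads, while in number 2 shared reads were fewer. TRBV12-1 clonotypes found in both treated tumor 1 and distant tumor 1 numbered 39, which is 7.66% of those in treated tumor 1 and 3.01% of those in distant tumor 1, but held 36.6% and 85.4% of the gene's reads in these tumors. Treated tumor 2 and distant tumor 2 shared 2 TRBV12-1 clonotypes, with 18.0% and 0.354% of the reads. For TRBV12-2 the 47 clonotypes shared by the tumors of number 1 held 36.9% of reads in treated tumor 1 and 50.6% in distant tumor 1, and the 11 shared by those of number 2 held 11.3% in treated tumor 2 and 15.6% in distant tumor 2. For the other 21 V genes the shared reads were 39.9% and 31.7% in number 1 and 45.1% and 30.6% in number 2. In number 2 both TRBV12 genes were thus below the rest of the repertoire in shared reads, a difference with no replicate and no test. Treated and distant tumors of different numbers shared clonotypes too. For TRBV12-1, treated tumor 1 and distant tumor 2 shared 3, with 17.1% and 8.92% of reads. Treated tumor 2 and distant tumor 1 shared 4, with 10.4% and 0.772%. TRBV12-1 sharing in number 2 thus did not stand out from that between numbers. For TRBV12-2 these pairs shared 8 and 2, with at most 3.69% of reads, less than within a number.

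Over all libraries 19898 of the 21086 TRBV12 clonotypes were found in 1 library, 1075 in 2, 99 in 3 and 10 in 4. The 2 found in all 6 were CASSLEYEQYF and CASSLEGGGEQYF. One of the 2 found in 5 was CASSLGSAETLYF with TRBV12-1 and TRBJ2-3, which had 26 and 9 reads in the treated tumors, 7 in distant tumor 1, and 1 and 3 in the spleens. The other was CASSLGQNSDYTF with TRBV12-2 and TRBJ1-2, which had at most 4 reads in any library. The spleens of numbers 1 and 2 had 402 TRBV12-1 clonotypes in common (11.6% of those in spleen 1 and 7.99% of those in spleen 2) and 415 TRBV12-2 clonotypes (10.7% and 8.63%), against 9.40% and 6.55% for the other 21 V genes.

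J partners were compared in clonotypes counted once, which takes out the read number of a clone but not its 1-residue variants. TRBJ2-5 was the partner that came nearest to a difference between the genes over all libraries. In all 6 libraries a lower share of TRBV12-1 than of TRBV12-2 clonotypes used TRBJ2-5. It was 3.93% and 7.78% of TRBV12-1 clonotypes in the treated tumors, 1.85% and 11.2% in the distant tumors and 10.1% and 11.1% in the spleens. Among TRBV12-2 clonotypes it was 9.89% and 25.5% in the treated tumors, 13.3% and 15.1% in the distant tumors and 17.0% and 17.7% in the spleens. Over all 6 libraries edgeR called 0 of 12 TRBJ genes (0.0%) at an adjusted p under 0.05 and 3 at an unadjusted p under 0.05, and no other tool was run on them. TRBJ2-5 had a log2 fold change of -1.24 for TRBV12-1 over TRBV12-2 (SE 0.381, adjusted p = 0.0845 by edgeR), TRBJ1-5 one of -0.69 (adjusted p = 0.107) and TRBJ2-2 one of -1.30 (adjusted p = 0.152). The TRBJ2-5 difference passed with TMM scaling (-1.02, adjusted p = 0.0354 by edgeR), with 1-residue variants merged (-1.07, adjusted p = 0.0329), with at least 2 reads per clonotype (-1.07, adjusted p = 0.0417), without distant tumor 1 (-0.92, adjusted p = 0.0109) and in the spleens alone. It did not pass by reads (adjusted p = 0.228), in the tumors alone (0.193), without clonotypes found with both genes (0.0726) or without any 1 of the other 5 libraries (0.0612 to 0.144). Without distant tumor 1 edgeR called 3 TRBJ genes.

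In the 2 spleens, where each gene has at least 3477 clonotypes and a leader of at most 1.00% of its reads, edgeR called 5 of 12 TRBJ genes (41.7%). TRBV12-1 had less TRBJ2-5 (log2 fold change -0.70, SE 0.0446, adjusted p = 2.67e-08) and less TRBJ1-5 (-0.87, adjusted p = 0.0182). It had more TRBJ1-2 (0.54, adjusted p = 0.00177), more TRBJ2-1 (0.33, adjusted p = 0.000328) and more TRBJ2-3 (0.20, adjusted p = 0.0428). TRBJ2-7, the most used partner of both genes in the spleens, was at 21.4% and 21.5% of TRBV12-1 clonotypes and 21.3% and 22.0% of TRBV12-2 clonotypes. That fit has 2 libraries for each gene and a single residual degree of freedom, too few to measure the spread of 1 TRBJ gene. Its p-values rest on spread pooled over the TRBJ genes and not on that of each gene between these spleens.
TRBJ2-5, chr6:41543453-41543501: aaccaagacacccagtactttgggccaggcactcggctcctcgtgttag
TRBJ1-2, chr6:41534001-41534048: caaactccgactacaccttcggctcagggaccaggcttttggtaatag
TRBJ2-2, chr6:41542957-41543007: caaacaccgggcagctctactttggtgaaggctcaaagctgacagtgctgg
These J segments (plus strand, GRCm38, no base marked) are shown because TRBJ2-5 was lower with TRBV12-1 in every library, and because TRBJ1-2 and TRBJ2-2 are the partners of the largest clonotype of each gene. TRBJ2-2 did not pass in the spleens (-0.07, adjusted p = 0.668 by edgeR). The sequences can be set beside the ends of the deposited CDR3s: 81.3% of TRBV12 clonotypes assigned to TRBJ2-5 end in DTQYF, 59.7% of those assigned to TRBJ1-2 in SDYTF and 77.8% of those assigned to TRBJ2-2 in GQLYF.

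Among the 19 TRBV genes with at least 500 clonotypes in each spleen, the TRBJ2-5 share of TRBV12-2 was the second highest, at 17.4%, where the genes ranged from 8.97% to 17.5% around a median of 12.7%. TRBV12-1 was 16th of 19 at 10.6%. The TRBJ1-2 share of TRBV12-1, 7.93%, was the highest of the 19 (median 5.67%), and its TRBJ2-1 share, 13.6%, the second highest (median 10.8%). TRBV12-2 was near the median for both, at 5.41% and 10.8%.

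**Figure D4:**
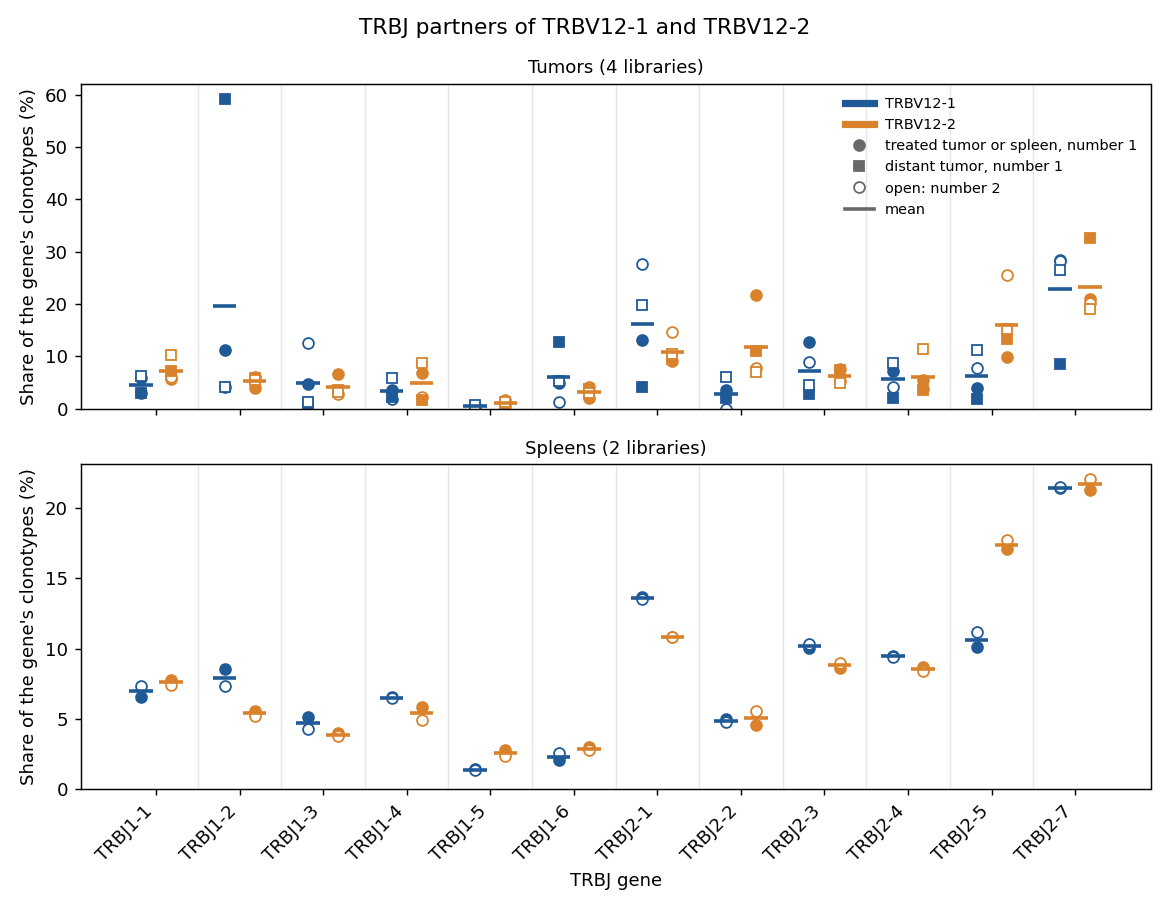
Share of a gene's clonotypes (%) that use each of the 12 TRBJ genes, for TRBV12-1 (blue) and TRBV12-2 (orange), in the 4 tumors (upper panel, circles for treated and squares for distant tumors) and the 2 spleens (lower panel), with filled symbols for number 1, open symbols for number 2 and bars for means. In the spleens the TRBJ2-5 shares are 10.1% and 11.1% for TRBV12-1 and 17.0% and 17.7% for TRBV12-2, and in the tumors TRBJ1-2 reaches 59.1% of TRBV12-1 clonotypes in distant tumor 1.

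In the tumors the J gene of a leading clonotype often stood out, also with clonotypes counted once. TRBJ1-2 made up 11.2% and 4.19% of TRBV12-1 clonotypes in the treated tumors and 59.1% and 4.08% in the distant tumors, against 8.54% and 7.31% in the spleens. The value of 59.1% belongs to distant tumor 1, home of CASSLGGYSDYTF, and was 50.9% with 1-residue variants merged. TRBJ2-2 made up 21.6% and 7.69% of TRBV12-2 clonotypes in the treated tumors, 10.95% and 7.06% in the distant tumors and 4.59% and 5.53% in the spleens. The highest value, 21.6%, is from treated tumor 1, where a TRBJ2-2 clonotype led, and it was 22.1% with variants merged. In the tumors alone edgeR called 1 of 11 TRBJ genes (9.09%), TRBJ2-2, which was lower with TRBV12-1 (log2 fold change -2.19, SE 0.688, adjusted p = 0.0347). Its shares with TRBV12-1 were 3.54% and 0% in the treated tumors and 2.00% and 6.01% in the distant tumors. In distant tumor 2 the genes were thus close, at 6.01% and 7.06%. The highest TRBJ2-2 shares of TRBV12-2, 21.6% and 10.95%, are from the tumors of number 1, which shared the leading TRBJ2-2 clonotype. The fit takes the 4 tumors as independent, although those of a number are taken to share a mouse.

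TRBV12-1 clonotypes had shorter CDR3s than TRBV12-2 clonotypes in all 6 libraries. The mean length over TRBV12-1 clonotypes was 13.84 and 13.88 residues in the treated tumors, 13.49 and 13.98 in the distant tumors, and 13.83 and 13.83 in the spleens. Over TRBV12-2 clonotypes it was 14.51 and 14.13 in the treated tumors, 13.92 and 14.13 in the distant tumors, and 13.88 and 13.92 in the spleens. The difference was -0.670 and -0.252 residues in the treated tumors, -0.437 and -0.149 in the distant tumors, and -0.0551 and -0.0907 in the spleens. It averaged -0.276 ± 0.237 residues (SD, n = 6), with an exact sign-flip permutation p of 0.03125, two-sided, the smallest that 6 libraries can give. Libraries of a number are taken to share a mouse and are not independent, and with any library left out the test cannot go below 0.0625.

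The J partners differ in length, and their shares were not equal for the genes, although over all 6 libraries 0 of 12 TRBJ genes were called. The lengths were therefore also compared within each J gene, a comparison added after the data were seen. With the J shares set equal the difference was -0.357 and -0.175 residues in the treated tumors, -0.303 and -0.168 in the distant tumors, and -0.0636 and -0.0971 in the spleens, with a mean of -0.194 ± 0.115 (SD, n = 6; exact sign-flip permutation p = 0.03125). It was lower in TRBV12-1 in 6 of 6 libraries by either measure. The spleen differences are under 0.1 residue. The other V genes averaged between 13.87 and 13.99 residues in the 6 libraries.

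**Figure D5:**
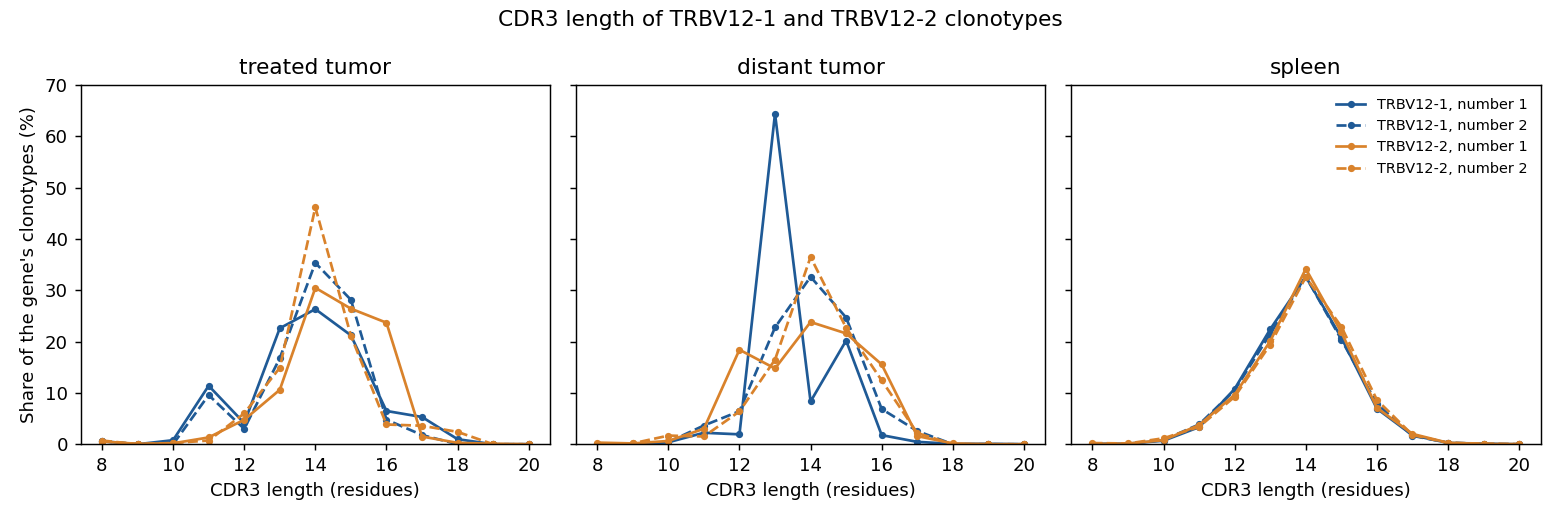
Share of a gene's clonotypes (%) at each CDR3 length (residues) for TRBV12-1 (blue) and TRBV12-2 (orange) in the treated tumors, distant tumors and spleens, with solid lines for number 1 and dashed lines for number 2. The curves of both genes nearly coincide in the spleens with a peak at 14 residues, while in distant tumor 1 TRBV12-1 peaks at 13 residues with 64.4% of clonotypes.

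Neither gene passed a test of mean length in tumors against spleens. For TRBV12-1 the difference of tumors against spleens was -0.0360 residues (p = 1, exact permutation test), and it turned positive, to 0.0447, with 1-residue variants merged. For TRBV12-2 it was 0.268 residues (p = 0.267, exact permutation test). The single peaks that stand out in tumors are the lengths of leading clonotypes. A length of 13 made up 64.4% of TRBV12-1 clonotypes in distant tumor 1, where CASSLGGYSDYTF has 13 residues, and a length of 16 made up 23.7% of TRBV12-2 clonotypes in treated tumor 1, where the leading clonotype with TRBJ2-2 has 16. In the spleens the same lengths held 22.4% and 21.5% of TRBV12-1 clonotypes, and 7.1% and 8.6% of TRBV12-2 clonotypes.

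Both genes open their CDR3s alike. In the spleens 87.0% and 84.7% of TRBV12-1 clonotypes and 83.3% and 82.2% of TRBV12-2 clonotypes began with CASS, the next residue being L in 41.9% and 40.3% of TRBV12-1 clonotypes and in 41.5% and 41.8% of TRBV12-2 clonotypes. Counted once, fewer clonotypes began with CASS in the tumors, 55.8% and 67.7% of TRBV12-1 clonotypes in the treated tumors and 45.6% and 61.8% in the distant tumors. For TRBV12-2 the shares were 52.8% and 55.8% in the treated tumors and 51.1% and 64.7% in the distant tumors. By reads tumors and spleens overlapped. CASS held 88.2% and 89.4% of TRBV12-1 reads in the treated tumors, 93.5% and 85.6% in the distant tumors, and 90.2% and 88.6% in the spleens, and of TRBV12-2 reads 88.2% to 90.0% over the 4 tumors, against 88.5% and 86.7% in the spleens. In the tumors single-read clonotypes made up 75.8% to 84.4% of TRBV12-1 clonotypes, against 71.4% and 72.5% in the spleens. The part of single reads and of 1-residue variants in this was not tested.

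The germline ends of the genes are identical, and the same J gene and CDR3 can arise with either. Of 20003 combinations of J gene and CDR3 seen with the family, 1083 were seen with both genes. Within a library there were 13 and 1 such pairs in the treated tumors, 17 and 3 in the distant tumors, and 297 and 444 in the spleens. Matches between spleens were of a like number, as 344 TRBV12-1 clonotypes of spleen 1 had a match with TRBV12-2 in spleen 2, and 378 of spleen 2 one in spleen 1. By reads, the 13 pairs of treated tumor 1 held 31.0% of TRBV12-1 and 30.8% of TRBV12-2 reads. The 17 of distant tumor 1 held 83.0% and 39.3%. In number 2 the pairs held 0.124% and 4.50% in treated tumor 2, and 1.56% and 0.254% in distant tumor 2. In the spleens they held 10.8% to 13.6% of either gene's reads. Whether reads were split between the genes was not tested. For the leading clonotypes the matching entry was small, with 1 to 6 reads in the other gene for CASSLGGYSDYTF, the TRBJ2-2 leader of treated tumor 1 and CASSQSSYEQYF in the tumors they led.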

How the data were processed

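TCR-β sequences were amplified, per the labels' protocols, from total RNA by ligation of an adaptor to the 5′ end of double-stranded cDNA, a cut with SphI, and PCR with adaptor and constant region primers, then sequenced on a MiSeq. The SphI site GCATGC is in neither TRBV12 transcript and in 1 of the 23 TRBV transcripts of GENCODE M21. Each deposited file lists, per the file headers, TRBV, TRBJ, CDR3 amino acids, a read count and a percent. The counts are whole reads deposited by the authors without normalization. The percent values deposited by the authors are rounded read shares and were not used for tests. The sources used here give no aligner, germline reference or error handling. As the genes of the family are close relatives, their reads may have been split between them.

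Shares are of reads without a stop or frame mark. Reads per TRBV gene were tested with edgeR 4.0.16 (quasi-likelihood, scaling by library total, 3 groups, Benjamini-Hochberg over 23 genes, 3 residual degrees of freedom) and with DESeq2 1.42.0 as an alternative, and TRBJ partners with edgeR on clonotypes per TRBJ gene, with library as a term. Clonotype numbers are means over 100 draws. Ratios against 0 reads use a floor of 3 reads per library. The scripts were tested on simulated data. Gene positions and sequences are from GENCODE M21 (GRCm38), to which 35 of 35 symbols matched.

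Groups come from the sample titles. Their numbers were taken as mice, since the series describes 2. Deviations of log2 TRBV shares from group means correlated at 0.299 between treated and distant tumors of a number, 0.184 between treated tumor and spleen and 0.0558 between distant tumor and spleen, over 22 genes. For the other 21 V genes, treated tumor 1 shared 39.9% of its reads with distant tumor 1 and 16.2% with distant tumor 2. Treated tumor 2 shared 45.1% with distant tumor 2 and 9.93% with distant tumor 1. The pairing itself was not tested. P-values of the edgeR and DESeq2 fits and of the permutation tests refer to the spread between these libraries. Apart from the usage fit with the title number as a pair, they take libraries of a number as independent. P-values of Fisher's test cover counting error only. A fit that leaves 1 library in a group takes that group's spread from the other groups. The fit of TRBJ partners in the spleens has the limit stated with it. Named genes are the members, TRBV13-1 to TRBV13-3 and the 3 TRBV genes most like each member. Named clonotypes are the 3 with most reads of each gene in each library, the 5 found in most libraries and the 5 with most summed share in both tumors of a number. Members, lists and rules were chosen with earlier results of these data known.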

Additional observations from a re-analysis of the deposited data

Results flagged for a closer look

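Reads with a stop or frame mark in the CDR3 lie outside the comparisons above and were found with both genes. TRBV12-1 had 1853 of them over the 6 libraries, with 258 and 29 in the treated tumors, 592 and 53 in the distant tumors, and 397 and 524 in the spleens. That was 8.50% of all TRBV12-1 reads in treated tumor 1, 3.46% in treated tumor 2, 2.87% and 3.62% in the distant tumors, and 7.21% and 6.71% in the spleens. TRBV12-2 had 1295, with 255 and 54 in the treated tumors, 110 and 68 in the distant tumors, and 319 and 489 in the spleens, or 3.50%, 2.31%, 3.15%, 3.34%, 5.06% and 6.61% of the gene's reads in the same libraries.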

How the results depend on the processing

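TRBV usage was refitted with other scaling, filters and clonotype sets. TRBV12-1 in treated against distant tumors was past the threshold with DESeq2 (-2.95), with clonotypes counted once (-1.37), and with clonotypes counted once and 1-residue variants merged (-1.12). For TRBV12-2, summing both genes gave -1.08 in treated against distant tumors, -0.34 in treated tumors against spleens and 0.74 in distant tumors against spleens, each opposite in sign to TRBV12-2 alone. TRBV12-2 in treated tumors against spleens was -0.0125 with TMM scaling, and in distant tumors against spleens it was 0.0209 with DESeq2, 0.0219 with clonotypes counted once and 0.0446 with these merged. The number of TRBV genes called was 2, 1 and 1 between treated and distant tumors under the 3 settings first named. Between treated tumors and spleens it was 3 with DESeq2, 1 without the leading clonotype of each gene, 1 with marked reads included and 4 with clonotypes counted once and merged. Between distant tumors and spleens it was 1 with clonotypes counted once and 3 without leading clonotypes. The replicate block, which takes the title number as a pair, changed no call (TRBV12-1 in treated against distant tumors -2.23, adjusted p = 0.120 by edgeR). TRBJ partners called numbered 1 with TMM scaling, 1 with at least 2 reads, 1 with variants merged, 5 in spleens and 1 in tumors, and TRBJ2-3 was -0.16 by reads. The mean length of TRBV12-1 in tumors against spleens was 0.0211 with at least 2 reads and 0.0447 with variants merged. Fisher's test called 34 TRBV12 clonotypes in number 1 at a minimum of 50 reads, and in number 2 it called 198 at 5 reads and 24 at 50. Leaving out each library in turn, TRBV12-1 ranged from -3.35 to -0.48 in treated against distant tumors and from -0.67 to 2.20 in distant tumors against spleens. TRBV12-2 ranged from -0.10 to 0.95 in treated against distant tumors and from -0.47 to 0.58 in treated tumors against spleens, with the sign turned without treated tumor 1. Genes called ranged from 0 to 1 in treated against distant tumors and from 0 to 3 in distant tumors against spleens, and TRBJ partners called from 0 to 3. The log2 ratio of TRBV12-1 to TRBV12-2 reads ranged from -0.69 to 0.12, the length difference from -0.320 to -0.197 residues (p at least 0.0625, the smallest 5 libraries allow), the TRBV12-1 length of tumors against spleens from -0.0971 to 0.0674, and TRBJ2-3 from -0.06 to 0.35. The sign of the log2 ratio turned without treated tumor 1 (0.09) and without treated tumor 2 (0.12), and TRBJ2-3 was -0.0628 and -0.03 without them. The TRBV12-1 values of treated tumor 2 rest on 809 reads, the fewest of the gene in any library. The cause of these changes was not tested, and the merging of 1-residue variants and the equal J shares were added after seeing the data. A further 268 recomputed values kept their direction and their side of the threshold, or moved by less than the limits set for values without a test.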

Other observations

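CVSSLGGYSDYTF with TRBV12-1 and TRBJ1-2, a 1-residue neighbour of the largest clonotype and named after its values were seen, had 22 reads in treated tumor 1 and 29 in distant tumor 1, where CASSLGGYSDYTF had 190 and 15201. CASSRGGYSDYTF, the neighbour with most reads in distant tumor 1, had 2 in treated tumor 1 and 109 in distant tumor 1. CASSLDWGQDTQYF with TRBJ2-5 was seen with either gene, with TRBV12-1 in distant tumor 1 (1 read), distant tumor 2 (16), spleen 1 (4) and spleen 2 (11), and with TRBV12-2 in treated tumor 2 (12), distant tumor 2 (1), spleen 1 (1) and spleen 2 (16).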
